A study of Mus musculus with 14 samples.

Results

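The effect of cortistatin loss outside the ischemic lesion was examined in the contralateral (CL) hemispheres of cortistatin-deficient (Cort-/-) and wild-type (Cort+/+) mice, by RNA-seq of 3 libraries of each genotype, which are 6 of the 14 libraries of the series. The libraries were taken by their labels, as CL replicates 1 to 3 of each genotype. The Cort-/- line lacks the cortistatin gene in all cells and was kept on a C57BL/6J background. All mice were males of 12 weeks that had undergone an occlusion of the left middle cerebral artery (MCAO) for 20 min under isoflurane, with 2 mg/kg meloxicam as analgesic, and brains were collected 48 h later. The CL hemisphere is the side that was not occluded, and the labels give its treatment as none. It therefore comes from an operated animal with a stroke on the other side, not from an unoperated mouse. The other 8 libraries come from ischemic hemispheres, 5 of Cort-/- and 3 of Cort+/+ mice, and serve here for comparison only. Replicates are described as independent biological replicates. Whether the CL and ischemic libraries of the same number come from the same mouse is not given in the sources used here.

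Cortistatin is a neuropeptide related to somatostatin, made mainly by GABAergic interneurons of the cortex and hippocampus. It binds the somatostatin receptors Sstr1 to Sstr5 and also the ghrelin receptor Ghsr. It dampens neuronal firing and inflammatory responses, and its receptors are found on neurons, glia, immune cells and vascular cells.

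Values are RPKM, which scale a gene's reads by its length and by a library size, and the 6 libraries hold 33059091 to 39112852 reads on genes. The library size behind the deposited values was not the plain total. It was 0.973 to 0.986 of the reads on genes in Cort-/- and 0.954 to 0.995 in Cort+/+ CL libraries. A gene was tested where its mean over the 6 libraries was at least 0.5 RPKM, which left 17338 genes. Fold changes are Cort-/- over Cort+/+ on the scale of log2(RPKM + 0.1), so a negative value is lower in Cort-/- mice, and the change of a gene near 0.1 RPKM is understated. A value given without a unit is such a log2 fold change, and the median of a gene list is that over its tested genes. A differentially expressed gene (DEG) has a Benjamini-Hochberg adjusted p under 0.05 in limma over all 17338 genes. Forebrain markers were high in all 6 libraries, with the cortical vesicular glutamate transporter Slc17a7 between 322 and 384 RPKM and the striatal enkephalin gene Penk between 144 and 167 RPKM, while the list of 6 cerebellar genes had 1 member above the filter, with a log2 fold change of 0.19. Sex-linked transcripts matched the labelled sex and had a median log2 fold change of 0.11. Cort+/+ replicate 1 and Cort-/- replicate 2 stood apart from the other 4 libraries on the first principal component, which held 34.4% of the variance of 14889 genes (scores 23.6 and 16.4, against −18.3 to −1.44). Both held high levels of reactive astrocyte genes.

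Loss of the Cort transcript was checked first. Cort lies on chromosome 4 of GRCm39 from 149209491 to 149211266. It was at 2.61, 5.68 and 5.5 RPKM in Cort+/+ replicates 1, 2 and 3 (64, 133 and 139 reads) and at 0, 0.0444 and 0 RPKM in the Cort-/- replicates, which hold 0, 1 and 0 reads. The Cort-/- libraries thus hold 1 Cort read in all against 336, a ratio of Cort+/+ over Cort-/- of 311 (exact 95% interval for counting error only, 55.4 to 12318). Cort fell in Cort-/- mice (log2 fold change −5.30, standard error 0.34, limma adjusted p = 0.00812). Cort+/+ replicate 1 held the least Cort of the wild-type libraries.

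Only 2 of the 17338 genes were DEGs, 0.0115% of those tested, with 1 in each direction (0.00577%). The other was Gm49980. This long non-coding RNA (chromosome 18, 30400111 to 30405186, GENCODE M39) has no function assigned here. Gm49980 was at 11, 12.1 and 9.68 RPKM in Cort-/- replicates 1 to 3 and at 3.06, 2.39 and 2.64 RPKM in the Cort+/+ replicates, so that the groups are far apart. It rose in Cort-/- mice (log2 fold change 1.98, standard error 0.12, limma adjusted p = 0.00812). In ischemic hemispheres it was at 9.78 to 12.1 RPKM in Cort-/- and 2.28 to 4.15 RPKM in Cort+/+ mice. Both calls rest on few libraries. Without Cort-/- replicate 1, Cort+/+ replicate 2 or Cort+/+ replicate 3 neither gene passed, and without Cort-/- replicate 3 Cort did not. An unadjusted p under 0.05 was found for 432 genes (2.49% of those tested), 230 higher (1.33%) and 202 lower (1.17%), and 1103 genes (6.36%) had genotypes that did not overlap, 3.63% higher and 2.73% lower. Rescaled to TPM, 2.97% of genes had an unadjusted p under 0.05, and 0.652% were lower, since that scaling raised the median fold change of all genes to 0.063. The median 95% interval of a fold change reached 0.25 to either side on the log2 scale, and in 16060 genes (92.6%) it lay within a 2-fold change in either direction.

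**Figure D1:**
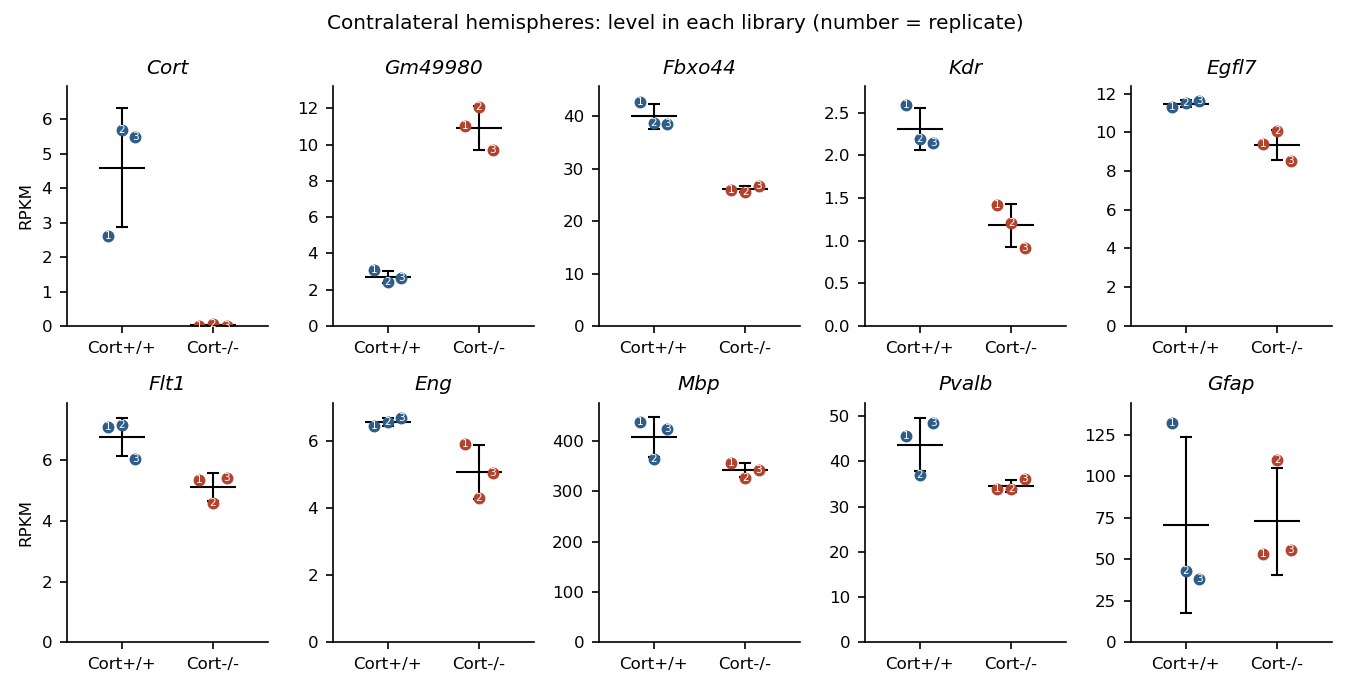
RPKM (vertical axes from 0) of 10 genes in the 3 Cort+/+ (blue) and 3 Cort-/- (red) contralateral libraries, with replicate numbers inside the points and the mean ± SD in black. Cort and Gm49980 passed the adjusted test. The genotypes do not overlap in any of the 10 but Gfap, where Cort+/+ replicate 1 and Cort-/- replicate 2 are high.

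Genes of chromosome 4 close to Cort held a larger share of low p-values than the background, in both directions. Of the 205 other tested genes within 10 megabases of Cort, 23 (11.2%) had an unadjusted p under 0.05 and 40 (19.5%) had genotypes that did not overlap, against 2.49% and 6.36% of all tested genes. Among the 838 genes of chromosome 4 further away the shares were 2.51% and 6.44%. None of the 205 passed the adjusted test in the 6 CL libraries. With all 14 libraries in the model, which estimates the spread from more libraries, 3 of them did.

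Fbxo44, a subunit that brings substrates to a ubiquitin ligase, lies 0.969 megabases from Cort (chromosome 4, 148236949 to 148245002). It was at 26, 25.6 and 26.7 RPKM in Cort-/- and 42.7, 38.7 and 38.4 RPKM in Cort+/+ libraries. The groups are far apart and the Cort-/- libraries nearly equal (log2 fold change −0.61, limma adjusted p = 0.0954, and 6.77e-04 with 14 libraries). Clcn6, a chloride/proton exchanger of late endosomes, was at 30.4, 28.4 and 30.7 RPKM in Cort-/- and 22.7, 23.6 and 23 RPKM in Cort+/+ libraries, higher in each of the former (log2 fold change 0.37, limma adjusted p = 0.551, and 0.0339 with 14 libraries). The zinc finger gene Zfp984 was at 0.279, 0.268 and 0.233 RPKM in Cort-/- and 0.994, 0.765 and 1.02 RPKM in Cort+/+ libraries (log2 fold change −1.50, limma adjusted p = 0.551, and 0.00176 with 14 libraries). Zfp984 belongs to a family of near-identical copies, so reads may be divided among its members.

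The further genes of this stretch with an unadjusted p under 0.01 lay in both directions. Masp2, a protease of the lectin pathway of complement, was at 1.03, 0.81 and 1.28 RPKM in Cort-/- and 0.111, 0.278 and 0.232 RPKM in Cort+/+ libraries (log2 fold change 1.92, unadjusted p = 3.51e-04). Dhrs3, a retinaldehyde reductase, had a log2 fold change of 0.43 and Padi2, the peptidylarginine deiminase of oligodendrocytes, of 0.70. Miip, which binds the insulin-like growth factor binding protein Igfbp2, was at 3.86, 4.49 and 3.19 RPKM in Cort-/- and 8.03, 6.24 and 5.93 RPKM in Cort+/+ libraries (log2 fold change −0.79). Further genes were Atp13a2, a lysosomal polyamine transporter (0.24), ENSMUSG00000138329 (1.99), Mir2139 (0.77), Gm55986 (0.34) and the pseudogene Gm13071 (−1.01), and the unadjusted p of the 13 genes in this class ran from 1.65e-05 to 0.00764. Of the 13, 9 were higher and 4 lower in Cort-/- mice.

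Some genes near Cort that lay below the filter had reads almost only in 1 genotype, and the 3 given here were picked after their values were seen. Tnfrsf8, the CD30 receptor of activated lymphocytes, had 3, 5 and 3 reads in Cort-/- and 83, 57 and 77 reads in Cort+/+ libraries. Zfp982 had 0, 1 and 0 against 33, 40 and 24 reads. Zfp990 was the reverse, with 47, 44 and 35 reads in Cort-/- and 0, 0 and 0 in Cort+/+ libraries. In ischemic hemispheres Zfp990 was at 0.209 to 0.408 RPKM in Cort-/- mice and at 0, 0.214 and 0 RPKM in Cort+/+ replicates 2, 3 and 4, so that 1 Cort+/+ library holds it. Both zinc finger genes belong to the same family of near-identical copies as Zfp984. The loss of Cort and any other difference between the lines in this stretch of chromosome 4 cannot be told apart in this design.

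**Figure D2:**
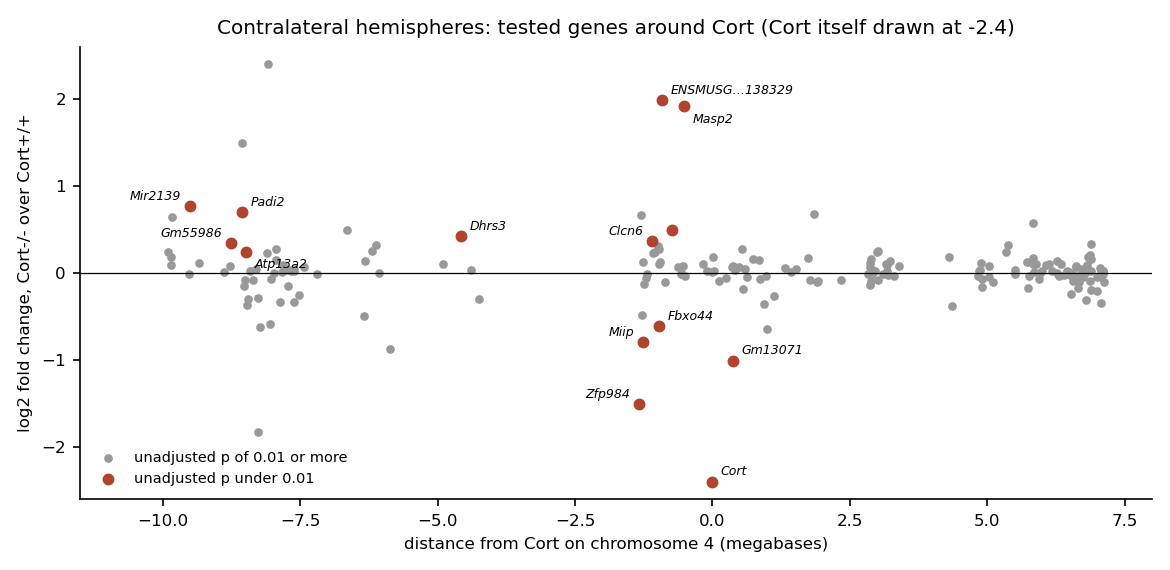
Log2 fold change (Cort-/- over Cort+/+, vertical axis) of the tested genes within 10 megabases of Cort against their distance from Cort (horizontal axis). Red points are Cort and the 13 genes with an unadjusted p under 0.01, 9 of them above 0 and 4 below, and grey points are the other genes. Cort is drawn near the lower edge, above its value of −5.30.

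Vascular genes tended to be lower in Cort-/- mice, without a DEG among them. Of 103 tested genes in 6 vascular lists, 66 had a fold change under 0, 10 (9.71%) had an unadjusted p under 0.05, and all 10 were lower in Cort-/- mice. Genotypes did not overlap for 16 (15.5%), against 6.36% of all tested genes (3.63% higher and 2.73% lower). Of the 16, 1 gene of the VEGF, angiopoietin and Notch list and 1 of the basement membrane list were higher in Cort-/- mice. The others were lower. Over all tested genes 48.3% were under 0 and 51.7% above. An unadjusted p under 0.05 was found for 2.49% of them, and 1.17% were lower with such a p. Without Cort+/+ replicate 1 and Cort-/- replicate 2 the 103 genes held 9 lower and 1 higher with such a p, where 3.87% of all genes had one. A raised share was not particular to vascular genes. Lists of other brain regions, red blood cells and leukocytes held 6 of 51 tested genes with such a p (11.8%), 4 lower and 2 higher. RNA came from whole hemispheres, so that fewer cells of a type and less RNA per cell cannot be told apart.

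Endothelial identity genes were all lower, 20 of 20, with a median log2 fold change of −0.24 against 0.00 for all tested genes. Egfl7, a factor that endothelial cells secrete into their matrix, was at 9.41, 10.1 and 8.54 RPKM in Cort-/- and 11.3, 11.5 and 11.6 RPKM in Cort+/+ libraries. The Cort+/+ values are nearly equal and above every Cort-/- value (log2 fold change −0.30, 95% interval −0.47 to −0.12, unadjusted p = 0.00519, adjusted p = 1.00). Eng, the co-receptor endoglin of TGF-beta, was at 5.89, 4.28 and 5.05 RPKM in Cort-/- and 6.44, 6.57 and 6.67 RPKM in Cort+/+ libraries (−0.38, 95% interval −0.65 to −0.10, unadjusted p = 0.0141). Sox17, a transcription factor of arterial endothelium, was at 0.878, 0.925 and 0.799 RPKM in Cort-/- and 1.02, 1.24 and 1.49 RPKM in Cort+/+ libraries (−0.47, unadjusted p = 0.0321). These 3 genes and Nos3, the endothelial nitric oxide synthase (1.86, 1.79 and 2.03 against 2.1, 2.31 and 2.13 RPKM), had genotypes that did not overlap. The pan-endothelial adhesion genes were closer, with a log2 fold change of −0.20 for Pecam1 (95% interval −0.44 to 0.04), −0.11 for Cdh5 (95% interval −0.41 to 0.19) and −0.23 for the receptor Tie1 (95% interval −0.56 to 0.10).

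The level of the endothelial list, as the mean log2 value of its genes minus the mean of the 6 libraries, was 0.01, −0.16 and −0.20 in Cort-/- and 0.18, 0.06 and 0.12 in Cort+/+ replicates 1 to 3. Cort-/- replicate 1 lay close to the lowest Cort+/+ library, and the other Cort-/- libraries lay well below. Without Cort+/+ replicate 1 and Cort-/- replicate 2, the libraries high in reactive astrocyte genes, the median was −0.18 and 16 of 20 genes were lower. It ran from −0.30 to −0.16 when 1 library was left out. In ischemic hemispheres the same list had a median of 0.02, with 13 of 20 genes above 0, where 45.3% of all genes tested in ischemic hemispheres were above 0 and 54.7% under 0.

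Receptors and ligands of vessel growth were read from the list of VEGF, angiopoietin and Notch signalling, where 18 of 23 tested genes were under 0 (median −0.06). This count was 13 of 23 on TPM, where the median of all tested genes was 0.063. It was 14 of 23 without Cort+/+ replicate 1 or without Cort+/+ replicate 3. Kdr, the main signalling receptor for VEGF-A on endothelium, showed the largest difference of the vascular lists. Kdr was at 1.41, 1.21 and 0.918 RPKM in Cort-/- and 2.6, 2.2 and 2.15 RPKM in Cort+/+ libraries, with no overlap and a mean in Cort-/- mice that was 49% lower (log2 fold change −0.93, 95% interval −1.34 to −0.52, unadjusted p = 0.00103, adjusted p = 0.828). In ischemic hemispheres Kdr was at 2.05 ± 0.401 RPKM in Cort-/- (mean ± SD of 5 libraries) and at 2.25 ± 0.198 RPKM in Cort+/+ mice (mean ± SD of 3). Flt1, the receptor that binds VEGF-A without strong signalling, was at 5.36, 4.58 and 5.42 RPKM in Cort-/- and 7.09, 7.17 and 6.06 RPKM in Cort+/+ libraries (−0.40, unadjusted p = 0.00593). The ligand Vegfa was at 16.2, 12.9 and 19.9 RPKM in Cort-/- and 21.4, 21.8 and 22.7 RPKM in Cort+/+ libraries (−0.45, unadjusted p = 0.0158). Here too each Cort-/- value lies under each Cort+/+ value.

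Tek, the angiopoietin receptor Tie2, had a log2 fold change of −0.39 (unadjusted p = 0.0269) and Adgrl4, an adhesion receptor of sprouting endothelium, of −0.46 (unadjusted p = 0.0183). Other ligands lay nearer 0, with −0.02 for Vegfb (95% interval −0.17 to 0.13), −0.03 for Angpt1 (95% interval −0.38 to 0.32) and 0.15 for Pdgfb (95% interval −0.11 to 0.40). Among Notch genes, Notch1 was at −0.04 and Dll4 at −0.27. Nrp2, a co-receptor for VEGF-C and semaphorins, was the gene of this list that was higher without overlap (6.04, 6.66 and 6.22 RPKM in Cort-/- against 4.9, 6.03 and 5.49 RPKM in Cort+/+; 0.20, unadjusted p = 0.0671). Taking the endothelial and VEGF lists together, 8 of 43 genes had an unadjusted p under 0.05 and were lower, beside 1.17% of all genes. Of the other vascular lists only that of pericytes and smooth muscle held such genes, 2 of 15. The lists were chosen with earlier results of these data known, so the pooled count is not a test. Without Cort+/+ replicate 1 and Cort-/- replicate 2, part of the same data, the pooled count was again 8 of 43, beside 1.85% of all genes.

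**Figure D3:**
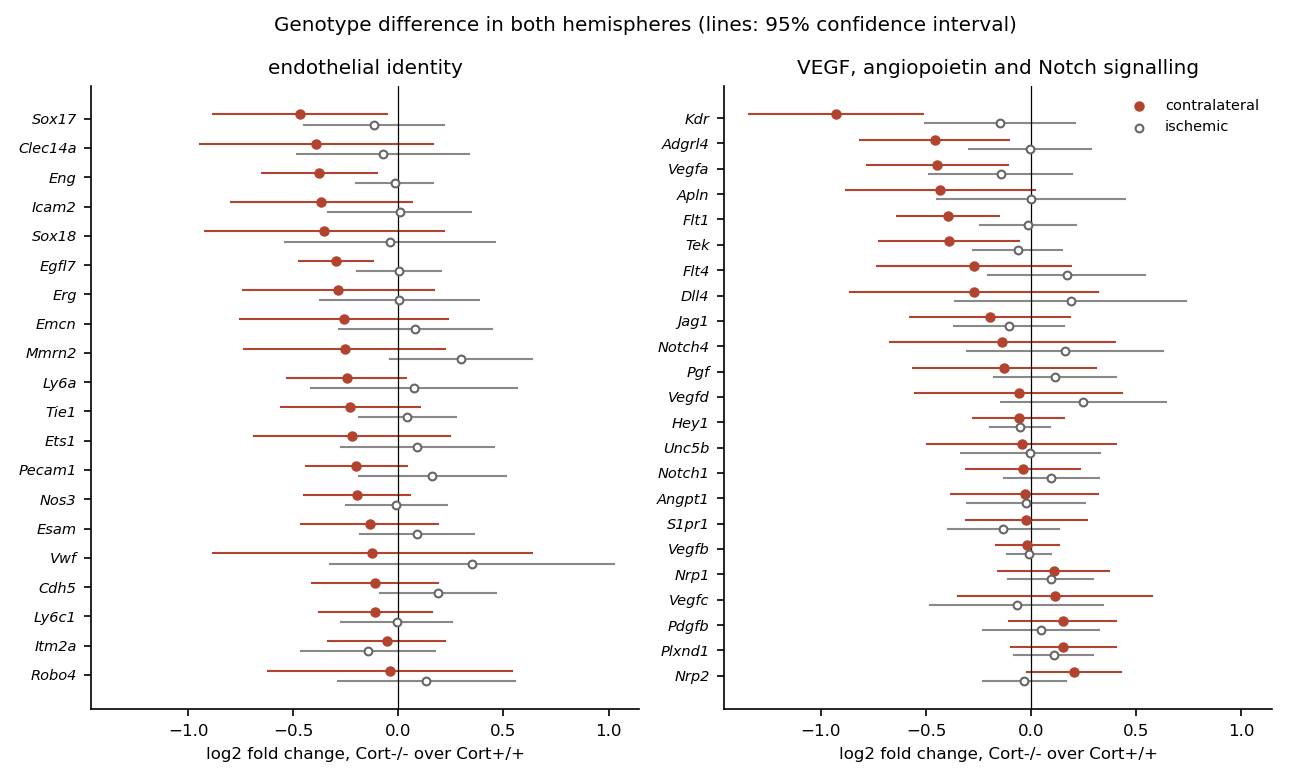
Log2 fold change (Cort-/- over Cort+/+) and 95% confidence interval of each tested gene of the endothelial list (left) and the VEGF, angiopoietin and Notch list (right), for contralateral (red, filled) and ischemic (grey, open) hemispheres. Contralateral values lie under 0 for 20 of 20 endothelial genes and 18 of 23 signalling genes, with Kdr the lowest at −0.93, while ischemic values lie on both sides of 0.

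Barrier, mural and matrix lists had medians nearer 0 than the endothelial list (−0.24). The barrier and pericyte medians nevertheless lay farther below 0 than that of the VEGF, angiopoietin and Notch list (−0.06). In the list of tight junctions and blood-brain barrier transport 14 of 19 tested genes were under 0 (median −0.08) and none had an unadjusted p under 0.05. Cldn5, the main claudin of brain endothelium, was at 13.3, 15.6 and 10.3 RPKM in Cort-/- and 16.8, 14.9 and 16 RPKM in Cort+/+ libraries (−0.30, 95% interval −0.64 to 0.04). The glucose transporter Slc2a1 was at 0.03 (95% interval −0.42 to 0.48), the lipid transporter Mfsd2a at 0.00 (95% interval −0.60 to 0.60) and the efflux pump Abcb1a at −0.13 (95% interval −0.39 to 0.12). Pericyte and smooth muscle genes had a median of −0.08, 10 of 15 under 0. Abcc9, the sulfonylurea receptor of the pericyte potassium channel, was at 1.04, 0.862 and 0.889 RPKM in Cort-/- and 1.71, 1.2 and 1.38 RPKM in Cort+/+ libraries without overlap (−0.56, unadjusted p = 0.0134), and Rgs5, a regulator of G protein signalling in pericytes, was at −0.32 (unadjusted p = 0.0434). Pdgfrb, the receptor that defines pericytes, was at −0.02 (95% interval −0.29 to 0.25), and the smooth muscle actin Acta2 at 0.11 (95% interval −0.15 to 0.37).

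Basement membrane genes had a median of 0.06, with 11 of 14 above 0, and genes of perivascular and meningeal fibroblasts a median of 0.12, with 11 of 12 above 0. Without Cort+/+ replicate 3 the medians were −0.028, with 6 of 14 above 0, and 0.044, with 7 of 12 above 0. None of these genes had an unadjusted p under 0.05. Red blood cell genes were lower beside the vascular lists. Hemoglobin Hbb-bs was at 54.6, 86.5 and 77.9 RPKM in Cort-/- and 194, 77.9 and 135 RPKM in Cort+/+ libraries, where replicates 1 and 3 stand above the others and replicate 2 is within the Cort-/- range. All 5 tested red blood cell genes were under 0 (median −0.85, 2 with an unadjusted p under 0.05). The median was −0.51 without Cort+/+ replicate 1, −1.31 without Cort+/+ replicate 2 and −0.34 without replicate 1 of both genotypes. The summed level of the 6 genes was 91 to 141 RPKM in Cort-/- and 125 to 329.9 RPKM in Cort+/+ libraries. In ischemic hemispheres all 5 were under 0 as well (median −0.29). The part of blood content in the vascular differences was not tested.

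**Figure D4:**
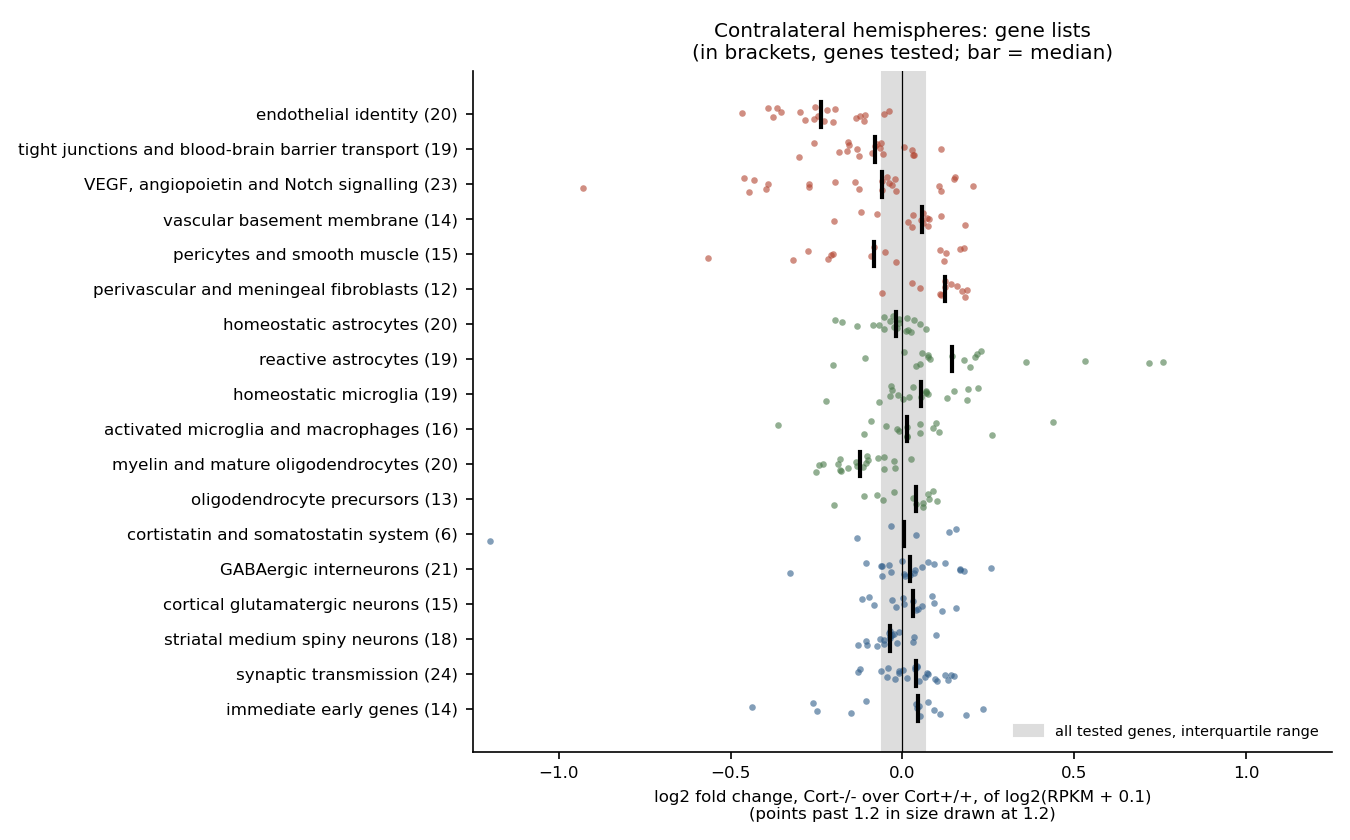
Log2 fold change of each tested gene (points) in the vascular (red), glial (green) and neuronal (blue) lists in contralateral hemispheres, with the median of each list as a black bar and the interquartile range of all tested genes shaded. The endothelial median (−0.24) is the farthest below 0 of the 18 lists, the myelin median (−0.12) follows, and the median farthest above 0 is that of reactive astrocytes (0.15). Cort, at −5.30, is drawn at the left edge.

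Glial lists, with 107 tested genes, held 5 genes with an unadjusted p under 0.05 (4.67%), all lower, beside 2.49% of all genes and 1.17% lower, and no DEG. Without Cort+/+ replicate 1 and Cort-/- replicate 2 they held 4 lower and 7 higher. Over all genes without these libraries 3.87% had such a p, 1.85% lower and the rest higher. These 2 libraries were set apart by reactive astrocyte genes, and leaving them out narrows the spread of such genes. The counts without them are therefore given as a description only. Homeostatic astrocyte genes had a median of −0.02. Ndrg2, a cytoplasmic protein of mature astrocytes, was at 329, 325 and 326 RPKM in Cort-/- and 383, 352 and 390.0 RPKM in Cort+/+ libraries (−0.20, unadjusted p = 0.0184), and the calcium-binding S100b was at −0.18 (unadjusted p = 0.029), both without overlap. The glutamate transporters were closely matched, with 0.01 for Slc1a2 (95% interval −0.13 to 0.15) and 0.02 for Slc1a3 (95% interval −0.17 to 0.20), as was the water channel Aqp4 at 0.03 (95% interval −0.18 to 0.23).

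Reactive astrocyte genes separated libraries within both genotypes. Gfap, the intermediate filament that rises in reactive astrocytes, was at 53, 109.9 and 55.4 RPKM in Cort-/- and 132, 42.8 and 37.9 RPKM in Cort+/+ replicates 1 to 3. Serpina3n, a secreted protease inhibitor of reactive astrocytes, was at 12.5, 47.6 and 12.4 and 59.6, 11.4 and 9.72 RPKM, and the iron carrier Lcn2 at 1.78, 3.78 and 2.43 and 5.84, 0.632 and 0.849 RPKM in the same order. Each is high in Cort-/- replicate 2 and Cort+/+ replicate 1, and lower in the other 4 libraries. Of the 4, the 2 Cort-/- libraries hold more Gfap and Lcn2 than the 2 Cort+/+ libraries. The list's 19 tested genes had a median of 0.15 (17 above 0), no gene with an unadjusted p under 0.05, and a 95% interval for Gfap of −0.98 to 1.37. Without both high libraries the median was 0.19. When 1 library was left out it ran from −0.030, without Cort-/- replicate 2, to 0.42, without Cort+/+ replicate 1. Ischemic hemispheres held 279.9 ± 85.1 RPKM Gfap in Cort-/- (mean ± SD of 5 libraries) and 210.3 ± 92.3 RPKM in Cort+/+ mice (mean ± SD of 3).

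Activated microglial genes were high in the same 2 libraries. The lysosomal marker Cd68 was at 6.76, 11.7 and 6.73 RPKM in Cort-/- and 11.4, 6.26 and 7.31 RPKM in Cort+/+ libraries (0.01, 95% interval −0.64 to 0.67), and the list of activated microglia and macrophages had a median of 0.01, and of 0.019 without both. Its member with the lowest p was Cd74, the chaperone of MHC class II, at 1.88, 1.44 and 1.79 RPKM in Cort-/- and 2.12, 2.16 and 2.35 RPKM in Cort+/+ libraries (−0.36, unadjusted p = 0.0281). Homeostatic microglial genes had a median of 0.05, with 13 of 19 above 0. Tmem119, a surface protein of resident microglia, was at 9.28, 9.79 and 9.42 RPKM in Cort-/- and 8.97, 8.6 and 7.48 RPKM in Cort+/+ libraries, higher in each Cort-/- library (0.19, 95% interval −0.01 to 0.38). The purinergic receptor P2ry12 was at −0.07 (95% interval −0.60 to 0.46).

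Myelin genes were lower in 19 of 20 cases, by small amounts (median −0.12). Mbp, the myelin basic protein, was at 355, 327 and 343 RPKM in Cort-/- and 437, 363 and 424 RPKM in Cort+/+ libraries, without overlap (−0.25, 95% interval −0.46 to −0.05, unadjusted p = 0.0226). Mog, on the outer myelin surface, was at 38.9, 33.2 and 34.6 and 42.1, 38.7 and 39.9 RPKM (−0.18, unadjusted p = 0.0425), and the highest Cort-/- library overlaps the lowest Cort+/+ library. Without Cort-/- replicate 2 the median of the list was −0.067 and 14 of 20 genes were lower. In ischemic hemispheres the median was −0.01, 10 of 20 under 0. Genes of oligodendrocyte precursors had a median of 0.04, with the platelet-derived growth factor receptor Pdgfra at 0.06 (95% interval −0.22 to 0.34).

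Neuronal genes differed little apart from Cort itself. Neuronal lists held 98 tested genes, of which 3 (3.06%) had an unadjusted p under 0.05 including Cort, near the 2.49% of all genes, and the 95% interval lay within a 2-fold change for 92. Somatostatin, Sst, was at 150.5, 158 and 172 RPKM in Cort-/- and 159, 164 and 206 RPKM in Cort+/+ libraries (−0.13, 95% interval −0.39 to 0.13), with overlapping genotypes, and the median of the cortistatin and somatostatin list was 0.00. The receptors of cortistatin did not differ beyond the spread between libraries: the log2 fold change was 0.04 for Sstr1 (95% interval −0.18 to 0.26), 0.14 for Sstr2 (95% interval −0.24 to 0.51), 0.16 for Sstr3 (95% interval −0.06 to 0.37) and −0.03 for Sstr4 (95% interval −0.47 to 0.40). Sstr5 and Ghsr were below the filter, at 0.125 to 0.217 and 0.109 to 0.278 RPKM over the 6 libraries.

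Interneuron genes had a median of 0.02. Pvalb, the calcium-binding parvalbumin of fast-spiking interneurons, was at 33.9, 33.9 and 36.1 RPKM in Cort-/- and 45.7, 37.1 and 48.5 RPKM in Cort+/+ libraries (−0.33, 95% interval −0.57 to −0.09, unadjusted p = 0.0137), and the Cort-/- values are tight and below the lowest Cort+/+ value. Calb2, the calretinin of another interneuron class, was at 32.2, 37.2 and 36.3 and 30.5, 31.5 and 31 RPKM (0.18, unadjusted p = 0.0309), higher in each Cort-/- library. The GABA-synthesizing enzymes Gad1 and Gad2 were at 0.01 (95% interval −0.13 to 0.15) and −0.06 (95% interval −0.18 to 0.06), and Npy, which many somatostatin cells also make, at −0.03 (95% interval −0.27 to 0.20).

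Glutamatergic, striatal and synaptic genes showed small differences. Medians were 0.03 for cortical glutamatergic neurons, −0.04 for striatal medium spiny neurons and 0.04 for synaptic transmission, and none of their tested genes had an unadjusted p under 0.05. Drd1 and Drd2, the dopamine receptors of the direct and indirect striatal pathways, were at −0.07 (95% interval −0.29 to 0.14) and −0.13 (95% interval −0.36 to 0.11). The glutamate receptor subunit Grin2b was at 0.13 (95% interval −0.11 to 0.38) and the postsynaptic scaffold Dlg4 at 0.06 (95% interval −0.09 to 0.21). The signs of the striatal, homeostatic astrocyte and hippocampal medians turned when RPKM was rescaled to TPM, which raised the median of all tested genes to 0.063. The striatal (0.022) and homeostatic astrocyte (0.040) medians stayed under that value.

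Immediate early genes, which neurons switch on within minutes of activity, were low in the libraries that were high in reactive astrocyte genes. The median of the list was 0.05, 0.089 without both libraries, and −0.20 to 0.31 when 1 library was left out. The list level was 0.19, −0.54 and 0.32 in Cort-/- and −0.50, 0.58 and −0.05 in Cort+/+ replicates 1 to 3. Arc, a regulator of synaptic strength, was at 56.9, 16 and 53.8 RPKM in Cort-/- and 22.4, 78.3 and 25.6 RPKM in Cort+/+ libraries, and its interval of −1.41 to 1.49 covers more than a 2-fold change both ways. The 2 libraries lowest in Arc are the 2 highest in Gfap.

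**Figure D5:**
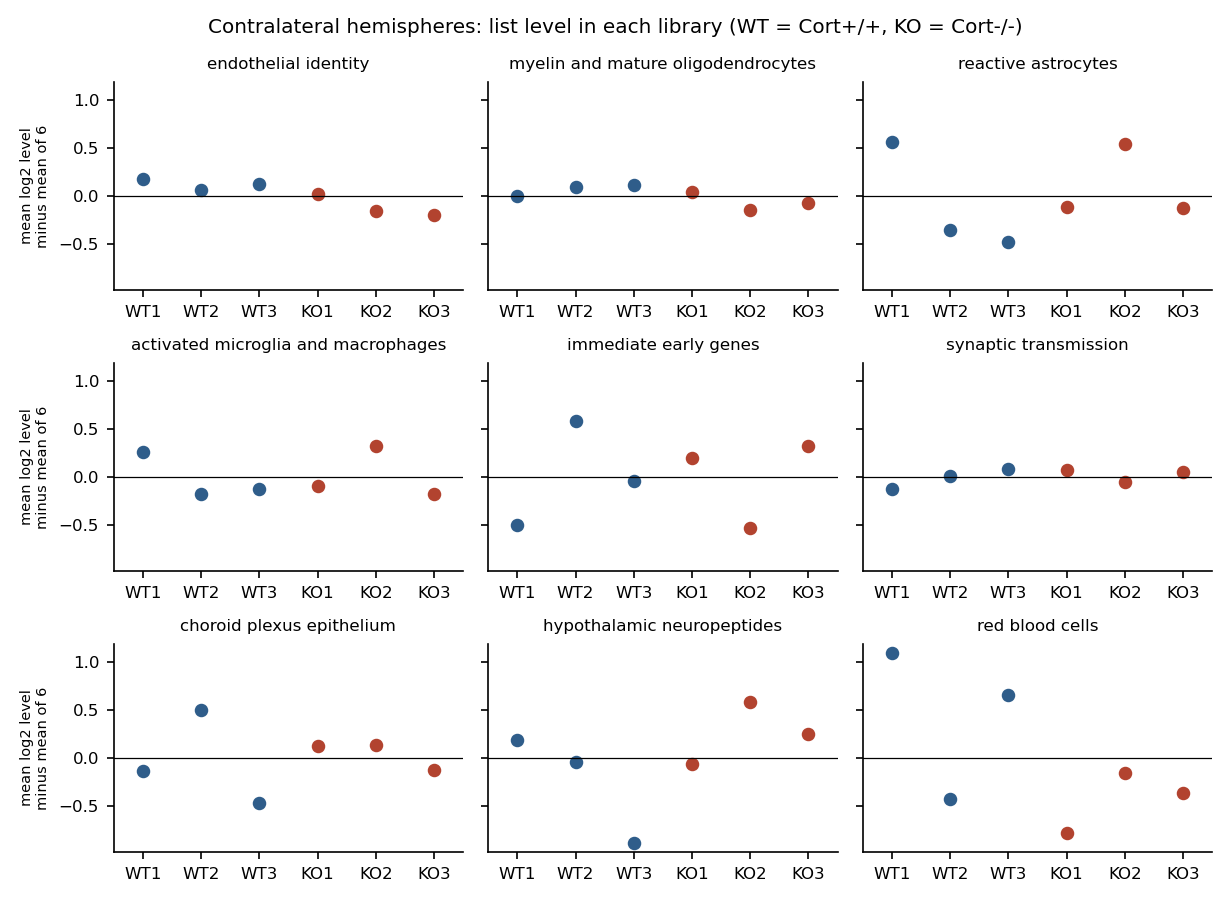
Level of 9 gene lists in each contralateral library, as the mean log2 value of the list's tested genes minus the mean of the 6 libraries (vertical axis), for Cort+/+ (blue, WT1 to WT3) and Cort-/- (red, KO1 to KO3) replicates. Reactive astrocyte and activated microglial genes are high in WT1 and KO2, where immediate early genes are low, and red blood cell genes are high in WT1 and WT3.

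Lists of other brain regions were measured as a check of the dissected tissue. All 8 hypothalamic neuropeptide genes were above 0 (median 0.44), and Cort+/+ replicate 3 was low. Oxytocin, Oxt, was at 17.7, 29.8 and 24.7 RPKM in Cort-/- and 22.8, 16.2 and 2.74 RPKM in Cort+/+ libraries (1.21, 95% interval −0.47 to 2.90). Trh, the thyrotropin-releasing hormone, was at 7.44, 12.1 and 9.46 and 5.89, 6.58 and 5.17 RPKM, without overlap (0.69, unadjusted p = 0.00586). Without Cort+/+ replicate 3 the median of the list was 0.14, and in ischemic hemispheres it was −0.45. All 4 genes of midbrain dopamine neurons were under 0 (median −0.42, and −0.26 without Cort-/- replicate 2), with Slc18a2, the vesicular monoamine transporter, at −0.44 (unadjusted p = 0.0376), and Cort-/- replicate 2 held the least Slc6a3, the dopamine transporter (5.32, 1.54 and 3.4 against 4.84, 5.04 and 4.93 RPKM). The medians of the other regions were 0.08 for choroid plexus, 0.13 for ependymal cells, −0.02 for hippocampus and −0.10 for thalamus, where Lef1 was at −0.44 (unadjusted p = 0.0182). The choroid plexus median was −0.16 without Cort+/+ replicate 3 and 0.39 without Cort+/+ replicate 2, and the ependymal median −0.022 without Cort-/- replicate 2.

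Response lists held no gene with an unadjusted p under 0.05 among 41 tested. Without Cort+/+ replicate 1 and Cort-/- replicate 2, 8 of the 41 had such a p, all higher. Over all genes without these libraries 3.87% had one, 1.85% lower and the rest higher. These 2 libraries were set apart by reactive astrocyte genes, and leaving them out narrows the spread of genes that vary with these. The 8 are therefore given as a description only. The interferon response had a median of 0.03 in CL hemispheres (9 of 17 tested genes above 0), or 0.011 without both libraries. In ischemic hemispheres, where all 24 genes of the list were tested, the median was 0.58, with 24 of 24 above 0. None of the 24 had an unadjusted p under 0.05 there or in the interaction. The CL and ischemic medians rest on different sets of genes, and a difference between hemispheres is not shown. Medians in CL hemispheres were 0.07 for TNF, IL-6 and IL-1 signalling, 0.14 for glucocorticoid targets and 0.19 for the cell cycle, of which 2 of 14 genes passed the filter. The glucocorticoid median was 0.52 without Cort+/+ replicate 1 and −0.0066 without Cort+/+ replicate 3. Some markers of infiltrating leukocytes were near 0, with the T cell gene Cd3e at most at 0.0917 RPKM and the neutrophil gene Ly6g at most at 0.0585 RPKM. Only 3 of 13 passed the filter, with 2 above 0 and 1 under 0 (median 0.83, and 0.030 for the list without a filter on the mean). Of these, S100a9, a calprotectin subunit of neutrophils, was at 3.39, 5.65 and 2.84 RPKM in Cort-/- and 2.38, 1.27 and 2.36 RPKM in Cort+/+ libraries, without overlap (0.94, unadjusted p = 0.0195). The 13 genes summed to 11.8 to 19 RPKM in Cort-/- and 10.6 to 14.7 RPKM in Cort+/+ libraries.

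Whether the genotype difference itself depended on the hemisphere was tested as an interaction over all 14 libraries and 17476 genes. No gene passed the adjusted test in limma, and 273 genes (1.56%) had an unadjusted p under 0.05. Within ischemic hemispheres 4 genes (0.0229%) were DEGs. For Kdr the fold change was −0.93 in CL and −0.15 in ischemic hemispheres, a difference of −0.78 (unadjusted p = 0.0076). For the other vascular genes named above with an unadjusted p under 0.05 the difference between hemispheres was −0.36 for Eng, −0.30 for Egfl7, −0.35 for Sox17, −0.38 for Flt1, −0.30 for Vegfa, −0.33 for Tek, −0.45 for Adgrl4, −0.57 for Abcc9 and −0.20 for Rgs5, with unadjusted p from 0.0148 to 0.358 and adjusted p of 1.00. Differences in the vascular genes are therefore not shown to be particular to the CL hemisphere. For Gm49980 the fold changes were 1.98 and 1.82 (difference 0.16, unadjusted p = 0.497) and for Fbxo44 −0.61 and −0.49 (difference −0.12, unadjusted p = 0.15).

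The spread between libraries was of the same order in both genotypes. The median SD of a gene over 3 libraries was 0.11 in Cort-/- and 0.13 in Cort+/+ mice on the log2 scale, and 10634 of 17338 genes (61.3%) had the larger SD in Cort+/+ mice. Libraries of the same genotype differed by a median of 0.101 to 0.176 per gene over 6 pairs and libraries of different genotype by 0.0996 to 0.162 over 9 pairs, and these ranges overlap. No 2 libraries were equal within counting noise (chi-square per degree of freedom 5.21 to 23.0 over the pairs).

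The genes of largest spread with a mean of at least 1 RPKM were short or non-coding RNAs, and several split the libraries across genotypes. ENSMUSG00000130597, on the strand opposite Malat1, was at 4.49, 0.231 and 0.102 RPKM in Cort-/- and 3.06, 0.0636 and 0.147 RPKM in Cort+/+ replicates 1 to 3. ENSMUSG00000124554, opposite Bc1, was at 11, 0.32 and 0.411 and 8.66, 0.27 and 0.714 RPKM, and the mitochondrial mt-Ts1, on the other strand at the end of mt-Co1, at 7.99, 0 and 0 and 4.39, 0 and 0 RPKM. Replicate 1 of each genotype is high in all of these and the other 4 libraries are low, as they are in ENSMUSG00000141378 (5.23, 0.0448 and 0.092 and 3.94, 0.0431 and 0 RPKM). The other 6 were Ighj2, Mir9769, Mir6975, Gm54572, Gm54571 and Mir7005, each with 0 to 5.92 RPKM in a library and overlapping genotypes.

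A further split within the Cort+/+ group was seen in mitochondrial transcripts, picked after their values were seen. Mt-Nd3, a subunit of respiratory complex I, was at 31.8, 57.8 and 43.2 RPKM in Cort-/- and 25.5, 363 and 717 RPKM in Cort+/+ libraries, and the transfer RNA gene mt-Tm at 843, 1004 and 1287 and 747, 6103 and 6456 RPKM. Cort+/+ replicates 2 and 3 are several times higher than Cort+/+ replicate 1 and the Cort-/- libraries. In ischemic hemispheres mt-Nd3 ranged from 17.3 to 50.4 RPKM in Cort-/- mice and was at 261, 32.2 and 244 RPKM in Cort+/+ replicates 2, 3 and 4. The genotype difference did not pass in CL hemispheres (mt-Nd3 −2.13, 95% interval −4.74 to 0.49). Without Cort+/+ replicate 1, mt-Tm passed the adjusted test, and without replicate 1 of both genotypes mt-Tf, mt-Tt and mt-Tv did. Reads on mitochondrial genes made up 3.87% to 4.48% of a Cort-/- and 3.92% to 5.89% of a Cort+/+ library.

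The largest differences with an unadjusted p under 0.01, no overlap and a mean of at least 1 RPKM, outside the DEGs, were in transcripts without a known role here. Higher in Cort-/- mice were ENSMUSG00000138329 near Cort (above), ENSMUSG00000141158 (3.42, 3.7 and 4.06 against 1.85, 1.52 and 0.916 RPKM, 1.37), Gm43305 (3.43, 5.81 and 5.53 against 2.61, 1.57 and 1.75 RPKM, 1.27) and Gm23442 (0.95). Lower were Gm22888 (−2.90), Gm25121 (−1.66), Gm54541 (−1.61) and Gm11966 (−1.44). None passed the adjusted test. Gm43305 and ENSMUSG00000141158 had ischemic fold changes of 1.56 and 1.98, and Gm11966 one of 0.98.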

How the data were processed

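RNA-seq libraries were made by the authors from poly(A) RNA and aligned to GRCm39 with GENCODE M28 genes through the reanalyzerGSE pipeline. The authors deposited RPKM values for 46904 genes in 14 libraries. Each value is a whole multiple of what 1 read is worth, so reads were recovered (100.0% of 495656 values above 0, within 1e-06). The authors state that, where variability was large, only replicates that grouped clearly were kept.

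Genes averaging 0.5 RPKM or more over the 6 contralateral libraries were tested with limma 3.58.1 in R 4.3.3 on log2(RPKM + 0.1), with genotype as the only term, an empirical Bayes spread and Benjamini-Hochberg adjustment. The ischemic comparison and the interaction used all 14 libraries. P-values rest on the spread between libraries. Limma-voom on the recovered reads called 2 genes, Gm49980 and Fbxo44. Counting intervals cover counting error only. Positions come from GENCODE M39 on GRCm39.

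The 32 gene lists and the genes were chosen with earlier results of these data known. Named genes were Cort, Sst and the receptors, the DEGs, the 3 genes of lowest p in each list with set tissue markers, genes within 10 megabases of Cort with p under 0.01, the 10 of largest spread, and the 5 higher and 5 lower genes of largest difference (mean of at least 1 RPKM, p under 0.01, no overlap). Of the genes this rule takes, some are not reported here. Other members of lists were named after their values were seen. Alternatives were other pseudocounts, filters, scalings (TPM, median ratio, quantile), voom, array weights, a replicate block, all 14 libraries in 1 model and left-out libraries. Leaving out replicate 1 of both genotypes and rescaling to nuclear reads were added after the data were seen. Python 3.11.15 was used for the other steps.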

Additional observations from a re-analysis of the deposited data

How the results depend on the processing

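The count of 2 DEGs became 1 with a pseudocount of 0.01 and 1 with a pseudocount of 1, 4 without replicate 1 of both genotypes, 5 with all 14 libraries in 1 model, and 0 to 3 when 1 library was left out. With replicate number as a block it was 0. The deviations of same-numbered libraries correlated at −0.080, −0.38 and −0.086, and no library correlated best with its own number. Replicate 1 of both genotypes nevertheless shared high levels of some short or non-coding RNAs (above). Whether libraries of the same number share a batch was not tested. The fold changes of Cort and Gm49980 kept their direction in each of these alternatives. The 432 genes with an unadjusted p under 0.05 became 1439 without a filter on the mean, 286 at a mean of at least 2 RPKM, 690 with array weights, 671 without Cort+/+ replicate 1 and Cort-/- replicate 2, 737 without replicate 1 of both genotypes, and 759 and 723 without Cort+/+ replicates 1 and 2. For the interaction, 273 became 1527, 159, 411 and 462 without a filter, at 2 RPKM and without these 2 libraries in turn, and 483 without replicate 1 of both genotypes. The interaction count of 0 became 1 without a filter on the mean (Gm55190). The cause of these changes was not tested.

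Of 639 list medians under alternatives, 621 moved by less than the spread between libraries. On TPM the median was 0.063 for all tested genes and −0.0051 for VEGF, angiopoietin and Notch signalling. It was 0.040 for homeostatic astrocytes, 0.10 for oligodendrocyte precursors, 0.082 for GABAergic interneurons and 0.022 for striatal neurons. Without replicate 1 of both genotypes it was 0.0027 for pericytes, −0.22 for myelin, −0.064 for glutamatergic neurons, −0.090 for striatal neurons and 0.60 for glucocorticoid targets. Without Cort+/+ replicate 1 and Cort-/- replicate 2 it was 0.041 for the cerebellar gene. For infiltrating leukocytes it was 0.030 without a filter and 0.40 at a mean of at least 2 RPKM. Leaving out 1 library gave −0.16 to −0.043 for tight junctions, −0.14 to −0.054 for VEGF signalling, −0.079 to −0.016 for striatal neurons, and 0.071 to 0.11 for the median SD between Cort-/- libraries, which was lowest without Cort-/- replicate 2. The median changed sign when some library was left out for basement membrane, homeostatic and reactive astrocytes, activated microglia, glutamatergic neurons, the cortistatin system, synaptic and immediate early genes, choroid plexus, ependyma, hippocampus, and the interferon, glucocorticoid and TNF lists. Depth limits genes of few reads, and 3 libraries a group limit the rest. The cell cycle list had no gene at a mean of at least 2 RPKM, so no value was had.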
